A study of Bos taurus with 12 samples.

Results

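The 9 genes described here belong to the glucocorticoid response of the bovine mammary gland: the receptor NR3C1, its cochaperone FKBP5, the induced genes TSC22D3, SGK1, ZBTB16 and MT2A, the transcription factors CEBPD and CEBPB, and the enzyme HSD11B1. Their probes were found by name, as those whose RefSeq transcript carries one of these gene symbols, with no threshold on a measured value. These genes had 23 of the 43653 non-control probes on the array, on which 12787 genes had at least 1 probe matched to a symbol. Mammary tissue was taken by biopsy from the rear udder of 6 midlactation, multiparous Holstein cows, on day 0 while they ate a lactation diet freely (CONT) and again on day 6 of an allowance cut to 50% of the net energy for lactation requirement (REST). Each cow gave 1 array in each group, 12 one-colour arrays in all, on 3 slides with both arrays of a cow on the same slide. Every cow was sampled in the same order, so the effect of restriction and that of time or of an earlier biopsy cannot be told apart. The series description counts 5 cows and the labels name 6. The study's methods say that 1 Holstein cow was excluded for mastitis, and the labels do not say which, so all 6 were used and each was also left out in turn.

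Glucocorticoids enter the cell and bind the receptor encoded by NR3C1, which is held ready by heat shock proteins and then moves to the nucleus to switch target genes on or off. In the mammary gland, cortisol acts with prolactin and insulin to maintain secretory differentiation and milk protein gene expression. The set covers several layers of this route: hormone activation inside the cell, the receptor and its chaperones, direct targets, and transcription factors that act further downstream.

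In brief, CEBPB fell under restriction relative to the 75th percentile of the array, and 1 probe of MT2A was called higher. Both calls were by small margins against the threshold. MT2A was dim enough in CONT that it entered the test only through its REST arrays. The probes of NR3C1 were lower on average but split around the threshold, and FKBP5, TSC22D3, SGK1, CEBPD and ZBTB16 did not pass. The probes of HSD11B1 were too dim to test. Levels are given as log2 signal relative to the 75th percentile of the array, called the normalized signal, so that 0 is the level of that percentile. A probe was tested if it stood well above background on every array of at least 1 group, which left 19403 probes and 7930 genes, including 15 probes of 8 of the 9 genes. Differences are REST minus CONT on the log2 scale, fitted with limma with cow as a block, and called at a Benjamini-Hochberg adjusted p under 0.1 over all tested probes. Taking the brightest tested probe of each gene, 2 of the 8 tested genes were called (CEBPB, and MT2A, which is not tested if every array must stand well above background), beside 1285 of 7930 genes on the whole array (16.2%), of which 550 were higher in REST (6.94%) and 735 lower (9.27%). By probe, 3 of the 15 were called, beside 3104 of 19403 (16.0%). The CONT and REST values overlapped for each of the 8 genes, and did not overlap for 180 of the 7930 genes (2.27%). With REST and CONT fitted as unpaired groups, none of the 8 was called by limma, 1 had an unadjusted p under 0.05, and 349 genes (4.4%) were called on the whole array. The median change of the 8 genes was 0.13, with 4 higher and 4 lower, against −0.01 over all tested genes. MT2A, tested only through the group in which it is high, is 1 of the 4 higher, so no support is taken from this median. As the tissue is bulk, a change in the number of cells of a type and a change in RNA per cell cannot be told apart.

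**Figure D1:**
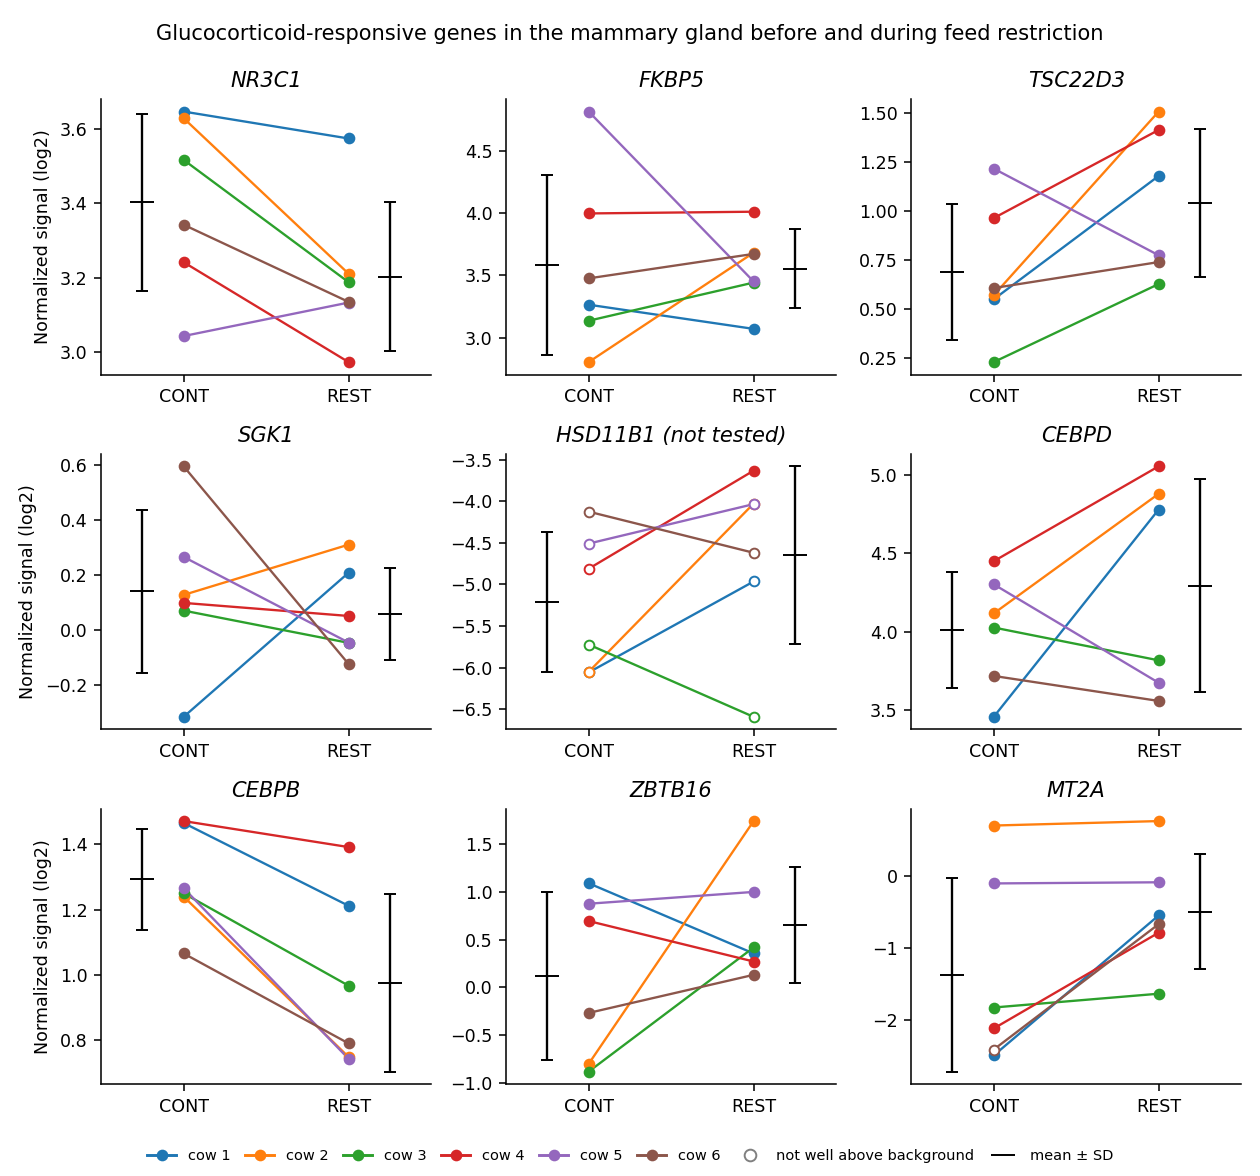
Normalized signal (log2, relative to the 75th percentile of the array) of the brightest tested probe of each gene in CONT and REST, with 1 line per cow, its own vertical scale in each panel, and the mean ± SD of 6 cows at the side. Open points were not well above background, HSD11B1 was not tested, and CEBPB lines fall in 6 of 6 cows. MT2A lines rise in 6 of 6, by as little as 0.02 in cow 5, and in cow 6 from an open CONT point.

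The receptor gene NR3C1 was measured well above background on all 12 arrays by 3 of its 4 probes, all designed on NM_001206634. At the brightest, A_73_118430, the normalized signal ran from 3.04 to 3.65 in CONT with a median of 3.43, and from 2.97 to 3.58 in REST with a median of 3.16. The groups overlapped widely, and the level was lower in REST in 5 of 6 cows. The mean difference was −0.20 (SE 0.09, 95% interval −0.40 to 0.00) and was not past the threshold (limma adjusted p = 0.182). With normexp and the percentile shift it was −0.07 (adjusted p = 0.606). At A_73_P110856, CONT ranged from 0.27 to 1.32 and REST from −0.10 to 0.74. Its difference of −0.42 (SE 0.14, 95% interval −0.75 to −0.10) lay at the edge of the threshold (limma adjusted p just under 0.1, and 0.240 without the cow block). The third tested probe, A_73_P085356, differed by −0.13 with an adjusted p of 0.598. The 3 probes thus pointed the same way with changes of different size, and cow 5 was higher in REST at each of them.

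FKBP5 encodes an immunophilin that binds the receptor complex, lowers its affinity for hormone and is itself induced by glucocorticoids, and it is widely used as a readout of receptor activity. Its brightest probe, A_73_P161147 on NM_001192862, ranged from 2.80 to 4.82 in CONT, with a median of 3.37, and from 3.07 to 4.01 in REST, with a median of 3.56. The REST values lay inside the CONT range. The mean difference was −0.03 (SE 0.24, 95% interval −0.57 to 0.52; limma adjusted p = 0.955), an interval that includes changes of over 0.5 in either direction. Single cows moved far apart: cow 2 was higher by 0.88 in REST, from 2.80 to 3.68, and cow 5 differed by −1.37, from 4.82 to 3.45. Without cow 5 the mean difference was 0.24, and it was still not past the threshold (adjusted p = 0.316). The other 2 tested probes gave 0.01 and −0.02.

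TSC22D3 encodes GILZ, a leucine zipper protein that is a direct glucocorticoid target and restrains inflammatory signalling. Its brightest probe, A_73_P038816 on NM_001103342, ran from 0.23 to 1.22 in CONT with a median of 0.59, and from 0.63 to 1.51 in REST with a median of 0.98. The level was higher in REST in 5 of 6 cows, with cow 5 as the exception (1.22 to 0.77). The mean difference was 0.35 (SE 0.16, 95% interval −0.01 to 0.71; limma adjusted p = 0.195). The second tested probe, A_73_P265031, had a closely similar difference of 0.43 (SE 0.20; adjusted p = 0.193), with 4 of 6 cows higher. Leaving out cow 5 raised the difference at the brightest probe to 0.51, past the threshold (adjusted p = 0.0485), and leaving out cow 2 lowered it to 0.23 (adjusted p = 0.437). Both remaining probes of the gene were dim, and well above background on at most 4 arrays of a group.

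SGK1, a kinase that regulates sodium channels and ion transport and responds to both glucocorticoids and mineralocorticoids, had nearly equal means. At A_73_119800, on NM_001102033, CONT ran from −0.31 to 0.59 and REST from −0.12 to 0.31, so that all REST values lay within the CONT range. The difference was −0.08 (SE 0.15, 95% interval −0.41 to 0.25; limma adjusted p = 0.753), and the second tested probe gave 0.00. Cow 1 was higher by 0.52 in REST, and cow 6 differed by −0.72.

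ZBTB16 encodes PLZF, a zinc finger repressor that is strongly induced by glucocorticoids in many cell types. It varied more between cows than any of the other tested genes in its change. At A_73_P033511, on NM_001037476, CONT ran from −0.88 to 1.09 with a median of 0.21, and REST from 0.13 to 1.74 with a median of 0.39. Cow 2 was higher by 2.55 and cow 3 by 1.30, while cow 1 differed by −0.74 and cow 4 by −0.42. The mean difference of 0.54 (SE 0.38, 95% interval −0.32 to 1.39) was smaller than the spread of the changes (SD 1.21, n = 6) and was not past the threshold (limma adjusted p = 0.390). Without cow 2 it was 0.13.

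MT2A encodes a metallothionein, a small zinc-binding protein induced by glucocorticoids, by zinc and in the acute phase response. At A_73_P103746, on NM_001075140, the 6 CONT cows read −2.49, 0.71, −1.83, −2.12, −0.10 and −2.41, in the order of cows 1 to 6. The same cows read −0.54, 0.77, −1.63, −0.78, −0.08 and −0.67 in REST. The groups overlapped, since cows 2 and 5 were already high in CONT, but each of the 6 cows was higher in REST. The fitted difference was 0.88 (SE 0.28, 95% interval 0.24 to 1.52; limma adjusted p = 0.0881). The probe was well above background on 5 of 6 CONT and 6 of 6 REST arrays, with cow 6 in CONT the exception, so it was tested only through REST, the group in which it is high, and neither a fold nor support for a change is taken from it. Cows 1 and 4 were higher in REST by 1.95 and 1.33, whereas cows 2, 3 and 5 were higher by 0.06, 0.19 and 0.02. The reading of cow 6, higher by 1.75, is against its CONT array that was not well above background. The other tested probe, A_73_121270, differed by 0.69 (SE 0.30; adjusted p = 0.182), with 4 of 6 cows higher. With normexp background correction the difference was 0.33 (adjusted p = 0.203) after the percentile shift and 0.43 after quantile normalization. The call was lost without the cow block (adjusted p = 0.449), with cow as a random block (0.157) and with slide in place of cow (0.348). It was lost without cow 1, 2, 4 or 6 (adjusted p of 0.197, 0.114, 0.212 and 0.171). The same held without moderation (0.222), without the filter on dim probes (0.204) and for the mean over its tested probes (0.78, adjusted p = 0.113).

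The gene whose normalized signal most resembled that of MT2A over the 12 arrays, among 7930 tested genes, was the metallothionein MT1A (Pearson r = 0.980), followed by SAA3 (r = 0.900), which encodes the mammary serum amyloid A protein of the acute phase response. The 12 points are 2 arrays from each of 6 cows, and the metallothionein sequences are closely alike, so the probes may read each other's transcripts, which was not tested. SAA3 stood at 6.26 in CONT and 7.35 in REST in cow 2, the cow with the highest MT2A in both groups. It went from 0.29 to 4.65 in cow 1, the cow with the largest difference in MT2A. In cows 4 and 6, whose MT2A reading was also over 1 higher in REST, SAA3 differed by 0.05 and 0.68, and in the 4 cows other than 1 and 2 it lay between 1.80 and 4.12. The summed linear signal of 11 acute phase and mastitis genes, each relative to the 75th percentile, ranged from 520 to 844 in CONT and from 629 to 1224 in REST, and was higher in REST in 6 of 6 cows. LTF alone made up 84.2% to 98.6% of that sum, and each of the 11 genes was well above background on at least 1 array. S100A12, IL1B and TNF differed by 0.05, 0.04 and 0.05, and CD14 by −0.09. The part of these genes in the result for MT2A was not tested.

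CEBPB and CEBPD encode CCAAT enhancer binding proteins, which glucocorticoids and cytokines regulate, and CEBPB is needed for differentiation of the milk-secreting epithelium. At the CEBPB probe A_73_P102851, on NM_176788, the 6 CONT cows read 1.46, 1.24, 1.25, 1.47, 1.27 and 1.07. In REST they read 1.21, 0.75, 0.97, 1.39, 0.74 and 0.79. Each cow was lower in REST, although the highest REST value lay within the CONT range. CEBPB fell by 0.32 (SE 0.09, 95% interval −0.51 to −0.12), which is 1.25-fold lower (limma adjusted p = 0.0555). The changes of single cows ran from −0.52 to −0.08, and the means on the 3 slides were −0.37, −0.18 and −0.40. Before the percentile shift, the CEBPB intensity of cows 1 to 6 was 791, 720, 709, 700, 206 and 153 in CONT. In REST it was 806, 656, 655, 806, 196 and 151, so it was higher in cows 1 and 4. The percentile that is subtracted was higher in REST in each cow, so the fall is relative to the rest of the array. With quantile normalization the difference was −0.31 (limma adjusted p = 0.0616). The unpaired fit did not call CEBPB (adjusted p = 0.236), and neither did the fits without cow 1, 2 or 3 (0.109, 0.160 and 0.101). The call was also lost with slide in place of cow (0.128) and without the filter on dim probes (0.171). The second CEBPB probe, A_73_P034912, was dim and not tested, being well above background on 1 CONT and 3 REST arrays. Its readings went the other way, with a mean difference of 0.23 and 4 of 6 cows higher. The 2 genes with the most similar pattern over the 12 arrays were FOXH1 (r = 0.916) and TLCD1 (r = 0.913).

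CEBPD, the member of the family that responds fastest to glucocorticoids and inflammatory signals, showed no common direction. At A_73_P037736, on NM_174267, CONT ran from 3.46 to 4.45 with a median of 4.07, and REST from 3.56 to 5.05 with a median of 4.30. Cows 1, 2 and 4 were higher, by 1.32, 0.76 and 0.60, and cows 3, 5 and 6 were lower, with differences of −0.21, −0.63 and −0.16. The mean difference was 0.28 (SE 0.23, 95% interval −0.25 to 0.81; limma adjusted p = 0.468), 0.07 without cow 1 and 0.46 without cow 5.

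HSD11B1 encodes the enzyme that regenerates active cortisol from cortisone inside cells. Neither of its probes, on NM_001123032, stood well above background in any of the 6 CONT biopsies, and each did so in 2 of the 6 REST biopsies, so that neither was tested. At A_73_P304316 the normalized signal ran from −6.06 to −4.12 in CONT and from −6.59 to −3.63 in REST. At A_73_P045781 it ran from −6.65 to −4.13 and from −6.18 to −3.34. No fold is given, since the REST means (−4.65 at A_73_P304316 and −4.36 at A_73_P045781) lay below the CONT floor of −3.68. That floor is the mean over the CONT arrays of the lowest signal well above background on each.

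**Figure D2:**
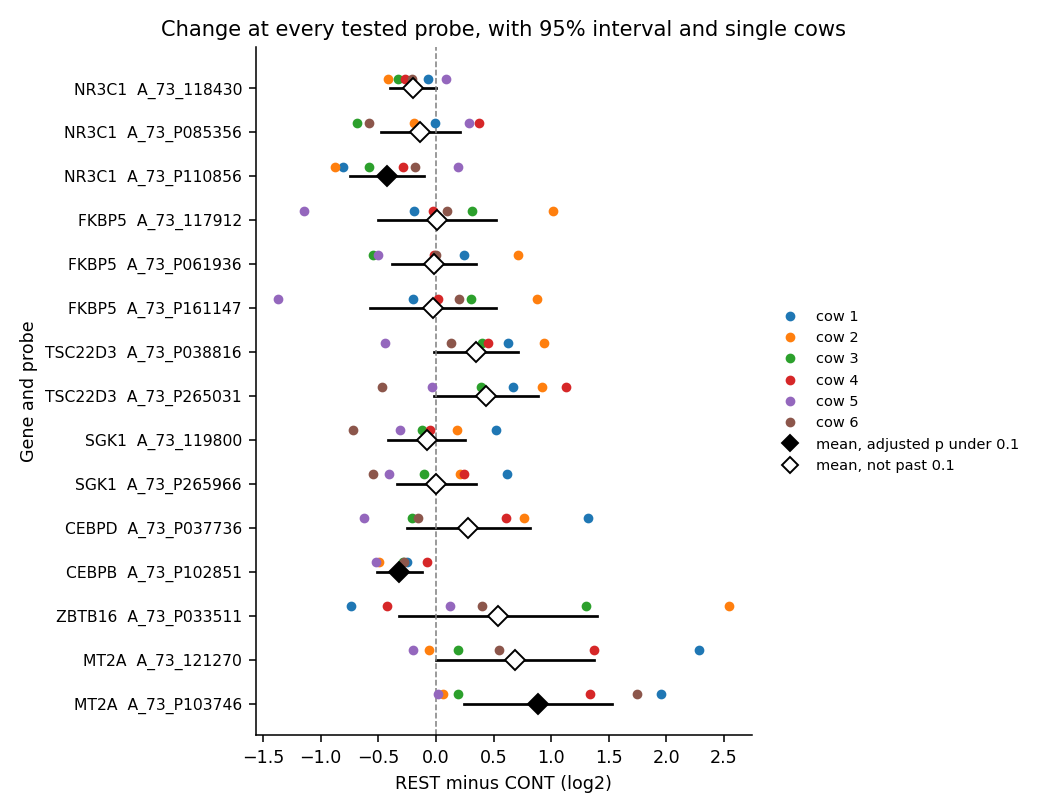
REST minus CONT (log2) at each of the 15 tested probes, with the mean (diamond), its 95% interval from the limma fit with cow as a block (bar) and the change of each of the 6 cows (points). The interval lies wholly below 0 for CEBPB and 1 NR3C1 probe. It lies wholly above 0 for MT2A A_73_P103746, which was tested only through REST.

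The plot of changes at every tested probe shows how alike the probes of a gene were and how far apart the cows were. The mean changes at probes of the same gene had the same sign, except for FKBP5 and SGK1, whose means lay near 0, and cow 2 had the highest change at all 3 FKBP5 probes. Of the 8 genes, cow 2 was higher in REST for 6 and cow 5 for 3, with 4 for each of the other cows. The median change over the 8 genes was 0.47 in cow 2, 0.22 in cow 1, 0.04 in cow 3, −0.01 in cow 6, −0.02 in cow 4 and −0.38 in cow 5. The median over all 7930 genes stayed between −0.05 and 0.01 in each cow. MT2A, tested only through REST, is among the 8 genes in these counts and medians.

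Slides hold 2 cows each, so slide and cow cannot be told apart. Within slides 1, 2 and 3, TSC22D3 differed by 0.78, 0.42 and −0.15, CEBPD by 1.04, 0.20 and −0.39, SGK1 by 0.35, −0.08 and −0.51, and FKBP5 by 0.34, 0.16 and −0.59. These are means of 2 cows, and the cows of a slide did not always go the same way: on slide 1 FKBP5 was −0.19 in cow 1 and 0.88 in cow 2, and on slide 3 TSC22D3 was −0.44 in cow 5 and 0.13 in cow 6. ZBTB16 differed by 0.91, 0.44 and 0.26, with cows in opposite directions on slides 1 and 2, and NR3C1 at its brightest probe by −0.25, −0.30 and −0.06, with cow 5 on slide 3 at 0.09. For MT2A the means were 1.01, 0.76 and 0.88, the last from 0.02 in cow 5 and the reading of cow 6 against a dim CONT array. CEBPB was lower in both cows of each slide. Arrays of slide 3 were dimmer: the 75th percentile was 73.2 to 117 intensity units on its arrays against 252 to 390.0 on the others, and 41.9% to 48.0% of probes were well above background on it against 61.8% to 67.9%. The part of the slide in these differences was not tested. The 75th percentile was higher in REST than in CONT in each cow. It went from 286 to 348 in cow 1, 305 to 390.0 in cow 2 and 298 to 335 in cow 3. In cows 4, 5 and 6 it went from 252 to 307, 85.7 to 117 and 73.2 to 87.0. The part of array brightness in the changes was not tested.

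**Figure D3:**
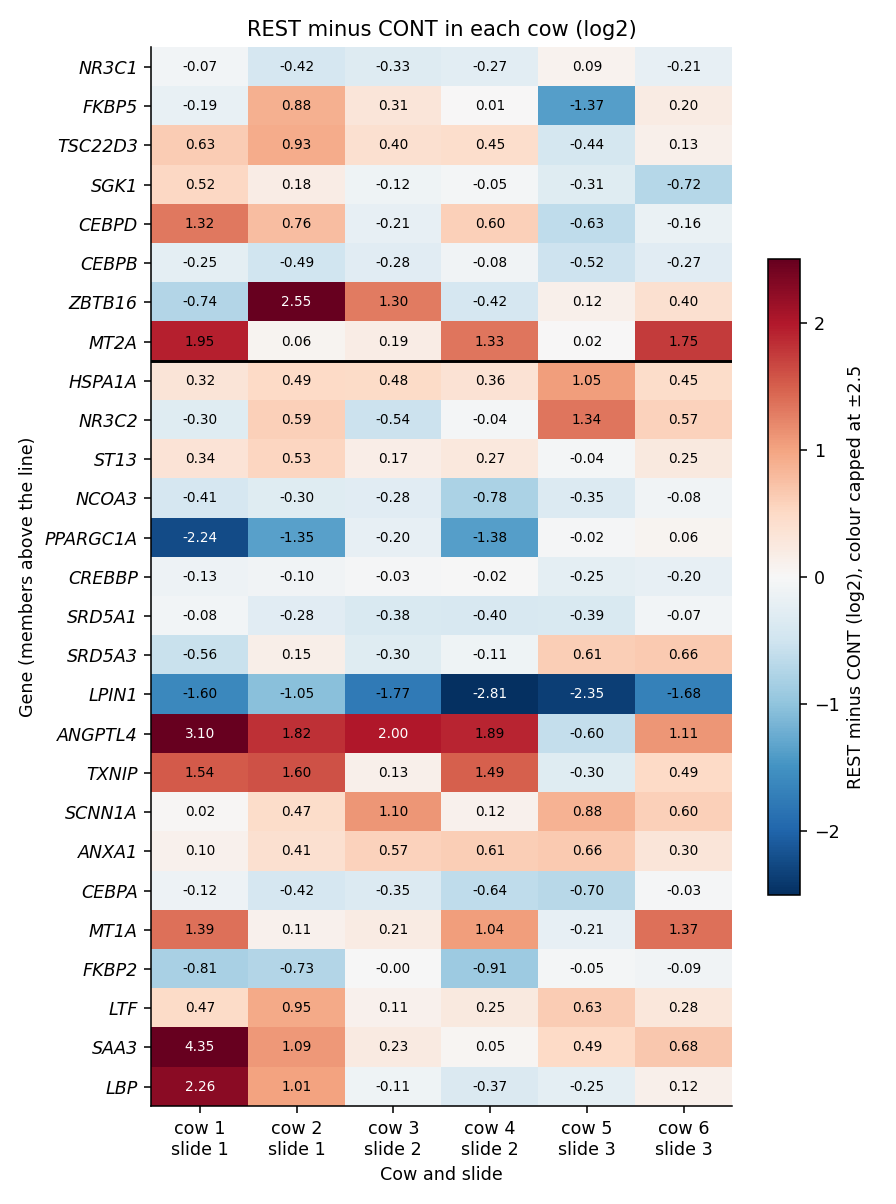
REST minus CONT (log2) in each of the 6 cows, in columns by slide, for the 8 tested genes above the line and the named genes of the surrounding lists below it; red is higher in REST and blue lower, with the value printed and colour capped at 2.5. CEBPB, NCOA3, LPIN1 and CEBPA are lower in each cow, and HSPA1A higher in each. MT2A was tested only through REST, and its value in cow 6 is against a CONT array that was not well above background.

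Around the receptor, 13 genes for steroid receptors and their chaperones were listed and all 13 were tested, NR3C1 and FKBP5 among them. HSPA1A, an inducible HSP70 chaperone that helps load hormone receptors, rose by 0.53 (SE 0.11; limma adjusted p = 0.0263), from −0.19 ± 0.32 to 0.33 ± 0.49 (SD, n = 6), with 6 of 6 cows higher. HSP70 genes have near-identical copies, so its probe may read more than 1 of them, and the unpaired fit did not call it (adjusted p = 0.234). None of the other 12 passed at the brightest probe. NR3C2, the mineralocorticoid receptor that also binds cortisol, differed by 0.27 (adjusted p = 0.465; 0.06 without cow 5), and ST13, an HSP70 cochaperone, by 0.25 (adjusted p = 0.115), although 3 of its 5 tested probes were called and the mean over its probes was 0.27 (adjusted p = 0.0464). The median of the list was 0.08.

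Of 10 listed coregulators, 6 were tested and 1 was called. NCOA3, a coactivator of steroid receptors, fell by 0.37 (SE 0.10; limma adjusted p = 0.0551), from a range of 3.16 to 3.53 in CONT to one of 2.75 to 3.21 in REST, was lower in 6 of 6 cows and was also called without the cow block (adjusted p = 0.0890). It was not called without cow 1, 2 or 4 (0.124, 0.128 and 0.134), nor after normexp and the percentile shift (−0.22, adjusted p = 0.189). PPARGC1A, a coactivator of energy metabolism genes, differed by −0.85 (adjusted p = 0.108), with −2.24, −1.35 and −1.38 in cows 1, 2 and 4, and CREBBP by −0.12 (adjusted p = 0.326).

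Steroid supply was poorly covered, with 2 of 8 genes tested. SRD5A1, which reduces glucocorticoids and androgens, fell by 0.27 (SE 0.08; limma adjusted p = 0.0834), was lower in 6 of 6 cows and was not called without the block (adjusted p = 0.501) or without any of cows 1 to 5 (0.110 to 0.207). It was also lost with cow as a random block (0.182), slide in place of cow (0.231), the median shift (0.116), and normexp with the percentile shift (−0.17, adjusted p = 0.181) or quantile normalization (0.109). SRD5A3 differed by 0.08. HSD11B2, the enzyme that inactivates cortisol, and AKR1D1 were too dim to test, as was HSD11B1.

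A further 28 genes known as receptor targets in other tissues gave 21 tested genes, of which 4 rose and 1 fell (23.8%, beside 16.2% of all tested genes). The list was drawn up with earlier results of these data known. Its median change was 0.35, with 17 of 21 higher, beside 3835 of 7930 genes higher over all tested genes. ANGPTL4, a secreted inhibitor of lipoprotein lipase that fasting induces, rose by 1.55 (SE 0.39; limma adjusted p = 0.0451), with 5 of 6 cows higher and cow 5 the exception. TXNIP, a brake on glucose uptake, rose by 0.82 (SE 0.26; adjusted p = 0.0872), SCNN1A, a subunit of the epithelial sodium channel, by 0.53 (SE 0.15; adjusted p = 0.0595), and ANXA1, an anti-inflammatory annexin, by 0.44 (SE 0.09; adjusted p = 0.0320). LPIN1, a phosphatidate phosphatase and coregulator of lipid genes, moved the other way and fell by 1.88 (SE 0.20; adjusted p = 0.00465), with 6 of 6 cows lower and cow 2 the lowest in both groups (−1.87 and −2.92). ANGPTL4 and LPIN1 were also called without the cow block (adjusted p of 0.0874 and 0.0761), and the other 3 were not. ANGPTL4 was not called without cow 1, 2 or 4 (0.104, 0.126 and 0.123), TXNIP without cow 1, 2, 4 or 6 (0.114 to 0.226) and SCNN1A without cow 2, 3, 5 or 6 (0.103 to 0.141), whereas ANXA1 and LPIN1 were called with any single cow left out. With normexp, LPIN1 was lower by less (−1.23 and −1.17) and still called. Many genes of this list also answer to fasting or other signals, and which signal moved them was not tested.

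Among 12 tested of 18 listed relatives of the 9 genes, 1 was called. CEBPA, the family member tied to lipid metabolism, fell by 0.38 (SE 0.11; limma adjusted p = 0.0658), from 6.06 ± 0.17 to 5.68 ± 0.29 (SD, n = 6), with 6 of 6 cows lower, as for CEBPB, and neither the unpaired fit (adjusted p = 0.186) nor the fits without cow 2, 3, 4 or 5 (0.111 to 0.174) called it, nor did normexp with the percentile shift (−0.24, adjusted p = 0.162). MT1A differed by 0.65 (adjusted p = 0.107, and 0.35 with normexp and the percentile shift), with its highest changes again in cows 1, 4 and 6 (1.39, 1.04 and 1.37), and FKBP2, an immunophilin of the secretory pathway, by −0.43 (adjusted p = 0.104). The median of the list was 0.03.

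Of 12 acute phase and mastitis genes, 7 were tested. LTF, the milk iron-binding protein lactoferrin, rose by 0.45 (SE 0.12; limma adjusted p = 0.0507), with 6 of 6 cows higher, and was not called without the block (adjusted p = 0.213) or without cow 1, 2 or 4 (0.114, 0.127 and 0.102). Its mean over 5 probes was 0.79. SAA3 differed by 1.15 (adjusted p = 0.177) and LBP, which binds bacterial lipopolysaccharide, by 0.44 (adjusted p = 0.399). Without cow 1 these were 0.51 and 0.08. Both had their highest values in cow 2, and LBP was higher in REST by 2.26 in cow 1. Over the 6 lists without the 9 genes, 58 of 85 genes were tested, 6 rose and 4 fell, and the median was 0.11. The share called, 17.2%, was near the 16.2% of all tested genes, and without the cow block 3 of the 58 were called.

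**Figure D4:**
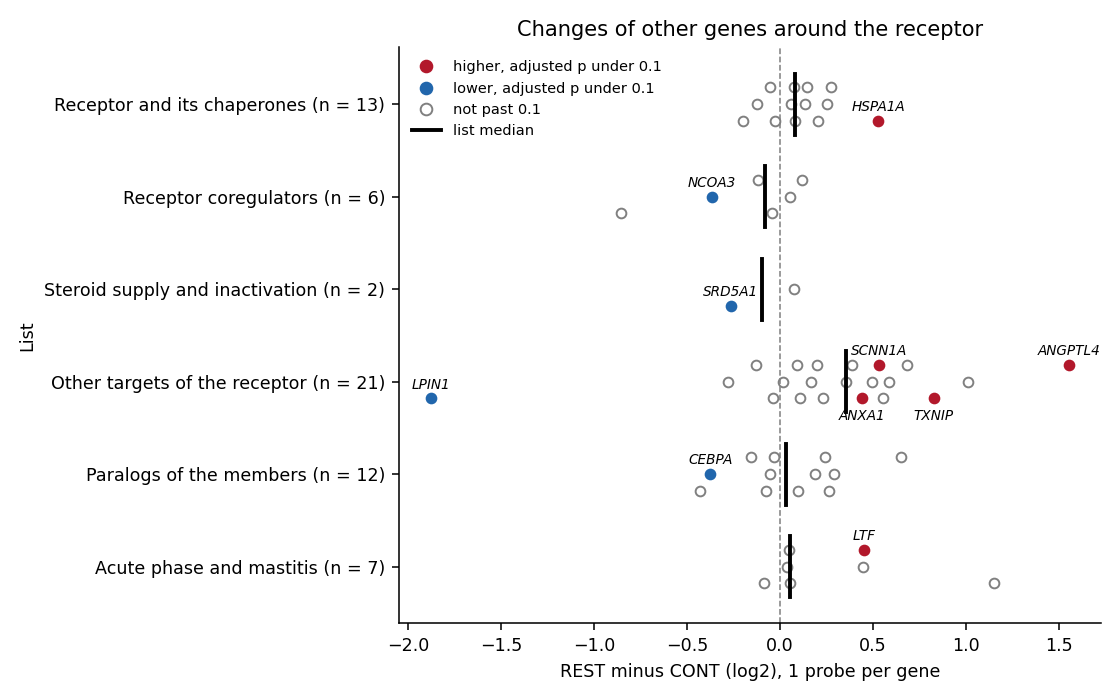
REST minus CONT (log2, brightest tested probe of each gene) for the tested genes of the 6 surrounding lists, with 1 point per gene and a bar at the list median. Filled points passed an adjusted p under 0.1, and the median lies at 0.35 for other targets of the receptor and between −0.10 and 0.08 for the other lists.

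The tissue carried its markers: 9 luminal secretory genes, caseins and LALBA among them, were well above background on all 12 arrays. Their summed linear signal was 3391 to 4290 in CONT and 2840 to 3553 in REST, lower in REST in 6 of 6 cows, a sum made up mostly of milk product genes. Of the 9, the caseins CSN1S1 and CSN3 fell by 0.26 and 0.28 (limma adjusted p of 0.0912 and 0.0776), and the keratins KRT8 and KRT18 rose by 0.72 and 0.52 (0.00890 and 0.0680). Of the marker genes called here, VWF alone was also called without the cow block. The summed signal of 5 adipocyte markers was lower in REST in 6 of 6 cows (142 to 211 in CONT, 98.6 to 146 in REST), but FABP4 supplied at least 99.4% of it on each array. FABP4 fell by 0.35 (limma adjusted p = 0.0447, lower in 6 of 6 cows), and RBP4, the other tested marker, differed by 0.19. That of 6 endothelial markers was higher in 6 of 6 cows (10.1 to 13.4 and 11.9 to 14.4). VWF, the only one of them called, rose by 0.54 (limma adjusted p = 0.00726) and made up 33.0% to 51.9% of the sum, while CDH5 differed by 0.03 and KDR by −0.15. The sum of 7 myoepithelial markers was lower in 5 of 6 cows (94.8 to 180 and 78.2 to 163), with ACTA2, which made up 37.1% to 51.5% of it, and CNN1 called lower (−0.38 and −0.53), and KRT5, OXTR and MYLK at 0.25, 0.17 and 0.04. The sums of 3 erythrocyte markers, almost all HBA, and of 4 skeletal muscle markers, with CKM called lower (−0.36), were lower in 5 of 6 and 6 of 6 cows. The sum of 6 fibroblast markers was higher in 3 of 6 cows, with DCN, at 0.32, making up 27.4% to 60.1% of it. The median change of the 6 was −0.36, with COL1A1 at −0.54, COL3A1 at −0.48, LUM at −0.41 and COL1A2 at −0.31, and none of their brightest probes passed the threshold. The 9 leukocyte markers ranged from 19.5 to 29.0 in CONT and from 24.0 to 31.6 in REST, higher in 4 of 6 cows. CD3D made up 49.0% to 63.3% of that sum, and the T cell marker CD3E rose by 0.35 (limma adjusted p = 0.0781, higher in 6 of 6 cows). Of the 8 tested leukocyte markers, 4 were higher and 4 lower, with a median of 0.06. The T cell marker CD2 differed by −0.17 and PTPRC by −0.15, each lower in 5 of 6 cows. PLIN1 and ITGAM, which define adipocytes and myeloid cells, were well above background on no array. The part of cell makeup in the changes of MT2A and CEBPB was not tested.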

How the data were processed

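RNA of 12 mammary biopsies was hybridised to one-colour Agilent arrays, and the authors deposited scanner output of Feature Extraction (version 11 in the submitters' processing notes). Per the file headers, the processed signal is an intensity after background subtraction. The deposited series table holds the same intensity values. Outlier flags and well-above-background calls were used as deposited. Here, control spots and marked spots were left out, repeat spots of a probe were averaged, log2 was taken and the 75th percentile of each array subtracted. Gene symbols came from RefSeq transcripts, for 27131 probes (62.2%). Transcript names were not matched to coordinates or promoter sequence.

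The fit used limma 3.58.1 in R 4.3.3 with cow as a block. The labels name the animal of each sample, and deviations of the same cow correlated at 0.355 to 0.574, against −0.326 to 0.135 for different cows. The methods of the study state the percentile shift, moderated test and threshold of 0.1, but no block. The script was tested on simulated data. No probe was saturated, and 12 arrays limit the precision.

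The 9 genes and the lists were chosen with earlier results of these data known. Named were the 9 genes, of each list up to 6 called genes by size of change (filled up to 3), and 2 genes most like each called member. Alternatives covered the block, slide, scaling, background, filter, flags, moderation, probe choice and each cow left out.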

Additional observations from a re-analysis of the deposited data

Results flagged for a closer look

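Single arrays were compared with the rest of their group for every tested probe of the 9 genes and the chosen probe of each named gene, in CONT and in REST, 68 groups of 6 in all. The gap test used here marks about 1 in 20 groups by chance, or 3.4 of 68, and it marked 2. Both were LPIN1 in cow 2. In CONT its normalized signal was −1.87, with the other 5 cows between 0.28 and 1.56, and in REST it was −2.92, with the others between −1.50 and −0.79.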

How the results depend on the processing

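With cow as a block, 3104 probes, 2 of the 9 genes and 10 genes of the surrounding lists were called. Without the replicate block, which drops the pairing by animal, these counts were 836, 0 and 3. With slide in place of the cow they were 1898, 0 and 5. Without the filter on dim probes they were 388, 0 and 1, with 43653 probes tested, and without moderation 1852, 1 and 4. The random cow block called 1 of the 9 genes beside 3548 probes, and the filter that requires every array called 1 beside 3103 of 17368 probes, with MT2A not tested. The mean over the probes of a gene also called 1. At an adjusted p under 0.05, chosen after seeing the data as was the probe mean, 0 of the 9 genes and 4 of the surrounding genes were called. Leaving out each cow gave 1045 to 3291 probes, 0 to 3 of the 9 genes and 3 to 13 surrounding genes, with the lowest counts without cow 2 (1045, 0 and 3), and with 0 of the 9 genes also without cow 1.

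CEBPB was called in 14 of 20 alternatives. Only 10 of these can give another value, and it lay between −0.36 and −0.22 in them. MT2A was called in 8 of 19. In the 11 that can give another value it lay between 0.33 (normexp and the percentile shift) and 1.06. TSC22D3 was called in 2 of 20, without cow 5 and with normexp and the percentile shift (0.39, adjusted p = 0.0631). LPIN1 was called in 20 of 20. The direction turned for changes that passed no threshold. FKBP5 was 0.027 with quantile normalization, 0.10 with normexp and the percentile shift, 0.031 with normexp and quantile normalization, 0.0085 at its probe A_73_117912, and −0.21 to 0.24 without each cow. SGK1 was −0.20 to 0.046 without each cow and 0.0016 at its second probe. CREBBP was 0.12 as a mean over its probes. SRD5A3 was −0.27 and −0.057 with normexp and the percentile shift or quantile normalization, and −0.041 to 0.20 without each cow. The causes were not tested. Dim probes, such as those of HSD11B1, limit what could be measured, and more so on slide 3.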
